A study of Mus musculus with 20 samples.

Results

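The genes described here are 3 receptors of the epidermal growth factor (EGF) family (Egfr, Erbb2 and Erbb3) and 7 of their ligands (Tgfa, Areg, Hbegf, Ereg, Btc, Epgn and Nrg1), measured by RNA-Seq in NMuMG cells, an epithelial line from the normal mouse mammary gland. These 10 genes were taken by name from the 54986 listed genes, and no threshold on their values was used. The 20 libraries formed 10 groups of 2. NMuMG cells were untreated, were exposed to TGFβ for several days (NMuMG TGFb), or carried an shRNA against hnRNP E1, the RNA-binding protein encoded by Pcbp1 (E1KD). M1P and L1P cells were grown out of a primary tumor and of lung metastases that E1KD cells had formed in immunodeficient NOD/SCID mice. They carried the same shRNA and were returned to culture with puromycin selection, so host cells without the resistance gene were selected against. These 5 groups are called the tumor progression set. The Platr18 set held NMuMG cells with an empty vector (Empty vector), clones 12 and 16 of NMuMG cells overexpressing the long noncoding RNA Platr18, and 2 groups of E1KD cells, of which E1KD SCR carried a scrambled shRNA and E1KD Platr18 KD one that targets Platr18. Each overexpressing group was 1 clone, and M1P and L1P were 1 line each. The labels name no vector or scrambled shRNA control in the tumor progression set. Silencing and the vector therefore cannot be told apart in E1KD against NMuMG. All cells were grown in the same serum-containing medium.

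EGF family receptors are tyrosine kinases that pair when a ligand binds. Egfr binds EGF, transforming growth factor α (Tgfa), amphiregulin (Areg), HB-EGF (Hbegf), epiregulin (Ereg), betacellulin (Btc) and epigen (Epgn). Erbb2 binds no known ligand and serves as a partner, and Erbb3 binds neuregulins such as Nrg1 and has little kinase activity of its own, so it signals through its partner, chiefly to PI3-kinase. In the mammary gland amphiregulin acts through Egfr in duct growth, and Erbb2 and Erbb3 form a strongly signaling pair. The ligands are made as membrane proteins and are released by ADAM proteases.

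Values are CPM, read counts scaled to a fixed total. Low values came in steps of 1 read, from which the depth of each library was inferred, 50.8 to 60.0 M reads in the tumor progression set and 63.0 to 147 M reads in the Platr18 set. In the deepest library 3 reads correspond to 0.0204 CPM and in the shallowest to 0.0591 CPM. The sets differed in RNA content: the mitochondrial ribosomal RNA mt-Rnr2 ranged from 333 to 492 CPM in the tumor progression set and from 113874 to 165149 CPM in the Platr18 set, so levels were compared only within a set. Pcbp1 read 287 and 312 CPM in NMuMG and 14.2 to 30.5 CPM in E1KD, M1P and L1P. In the Platr18 set it read 32.3 CPM in both Empty vector libraries and 3.28 and 3.46 CPM in E1KD SCR. Platr18, listed as Lncenc1, read 3.06 and 3.68 CPM with the empty vector, 3092 and 3096 CPM in clone 12, 813 and 820 CPM in clone 16, 2.92 and 3.10 CPM in E1KD SCR and 0.136 and 0.170 CPM in E1KD Platr18 KD. In the tumor progression set Platr18 read 1.24 and 1.45 CPM in NMuMG, 2.40 and 2.70 CPM after TGFβ and 17.9 and 14.6 CPM in E1KD. M1P held 25.7 and 26.2 CPM of it and L1P 76.9 and 73.3 CPM. Of 6 epithelial markers, 4 were at 1 CPM or more in every group, whereas Epcam and Cldn3 were at 3 reads or fewer in each library. The E1KD libraries stood apart from each other, with a median log2 ratio of 0.29 between replicates 1 and 2, against a size of 0.07 or less in every other group. Each result on E1KD is therefore given without each of its libraries where this changed a call.

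A gene was called changed when limma, fitted to log2(CPM + 1) of 17106 genes over all 20 libraries, gave an unadjusted p under 0.001 and a difference of at least 1 on the log2 scale. Fold changes on this scale understate those of genes near 1 CPM. Adjusted p-values are Benjamini-Hochberg values over all genes tested. With 2 libraries per group an exact permutation test cannot go below 0.333. Groups this small often do not overlap: in L1P against M1P this was so for 70.5% of all tested genes. That share was not counted in the other comparisons. No source says that the duplicates came from separate cultures, so a p-value covers the spread between these libraries, which may be technical. Of the 10 members, 9 passed the filter of 1 CPM in at least 2 libraries. Epgn was at 0.149 CPM or less in all libraries and was not tested.

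The receptors differed in how far they moved. Egfr, the receptor of most ligands listed here, was at 72.5 CPM or more in all 20 libraries and Erbb2 at 13.1 CPM or more, while Erbb3 ranged from 0.501 to 157 CPM. NMuMG cells held 6.96 and 7.45 CPM of Erbb3. TGFβ-treated cells held 0.501 and 0.566 CPM, or 30 and 34 reads, and E1KD cells held 1.46 and 1.11 CPM, or 74 and 60 reads. Both groups therefore lay well below untreated NMuMG cells, with no overlap. In bulk RNA, fewer cells with a transcript and less of it per cell cannot be told apart. M1P libraries held 107.8 and 108.4 CPM, and L1P libraries 156.9 and 157.1 CPM. All 4 libraries of cells that had passed through a mouse lay above every other library of the study for this gene.

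**Figure D1:**
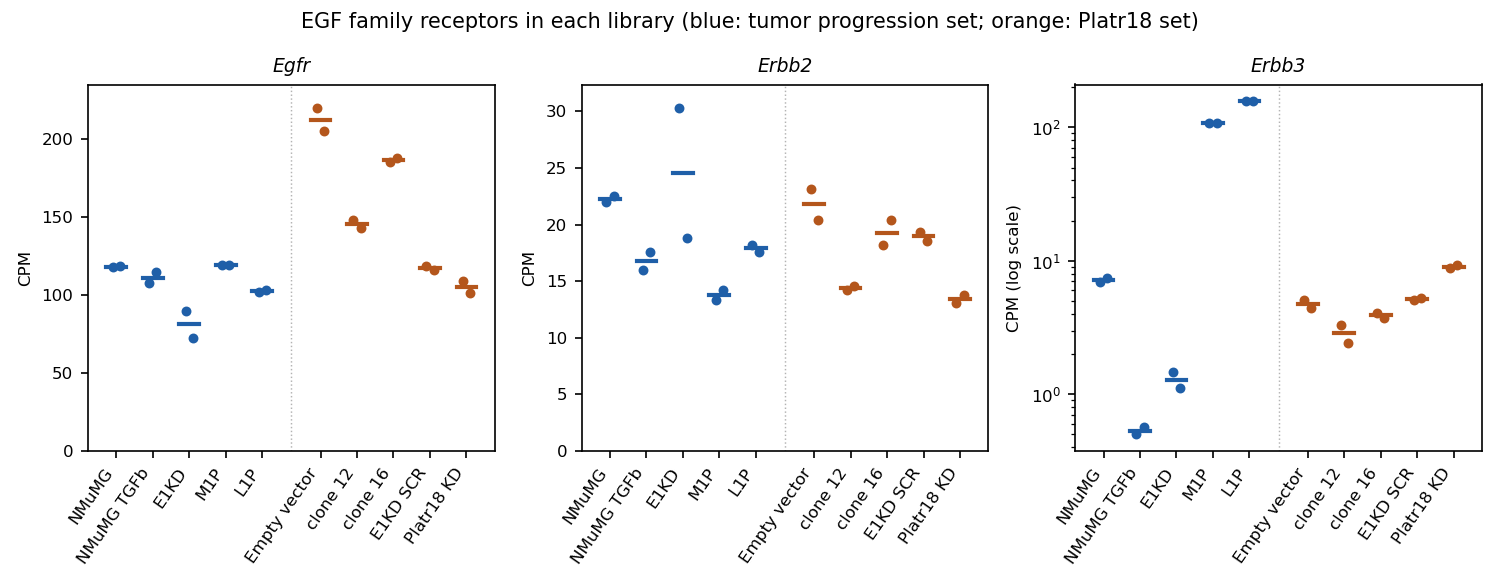
CPM of Egfr, Erbb2 and Erbb3 in each library, by group, with points for the 2 libraries and a bar for their mean. Axes of Egfr and Erbb2 start at 0 and that of Erbb3 is logarithmic; Erbb3 lies at 157 CPM in L1P against 1.11 and 1.46 CPM in E1KD, while Egfr stays between 72.5 and 219 CPM.

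Erbb3 was lower in E1KD than in NMuMG, by 1.85 ± 0.11 (SE) on the log2 scale (limma, adjusted p = 2.65e-09). The mean CPM of the groups differed 5.61-fold. TGFβ lowered Erbb3 by 2.42 ± 0.11 (limma, adjusted p = 9.46e-11), a 13.5-fold difference. E1KD and TGFβ-treated cells are compared with the same 2 NMuMG libraries, so these results are not independent. Set against each other, E1KD cells were 0.57 ± 0.11 above TGFβ-treated cells, which was not called, and 1.12 ± 0.14 with a pseudocount of 0.1, which was.

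Cells from the primary tumor held far more Erbb3 than the E1KD line. The difference of M1P from E1KD was 5.58 ± 0.11 on the log2 scale (95% interval 5.35 to 5.81, adjusted p = 7.24e-14), an 84.3-fold ratio of mean CPM, and by size it ranked 3 of 17106 genes. It was 5.47 without E1KD replicate 2 and 5.69 without E1KD replicate 1. L1P stood 0.53 ± 0.11 above M1P (95% interval 0.31 to 0.76), a 1.45-fold ratio below the limit for a call. M1P and L1P were each 1 line, so the animal, the site of growth and the selection cannot be told apart for this difference.

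Cells of another type could carry Erbb3 RNA, so their markers are given beside it. Erbb3 is well known in Schwann cells, the glia of peripheral nerves. Sox10, a Schwann cell transcription factor chosen after its values were seen, was at 0 CPM in 3 of the M1P and L1P libraries and at 0.0196 CPM in the other, and at 8.53 and 8.45 CPM in TGFβ-treated cells, where Erbb3 was lowest. S100b, a glial gene likewise chosen after its values were seen, read 0.297 and 0.195 CPM in the M1P libraries and 0.314 and 0.447 CPM in those of L1P, against 0.0566 to 0.0984 CPM in NMuMG and E1KD. Of the nerve markers, Syn1, a synaptic vesicle gene, was at 0.212 CPM or less in untreated NMuMG cells. The E1KD libraries held 3.74 and 2.66 CPM of it, those of M1P 3.46 and 3.88 CPM and those of L1P 1.96 and 1.86 CPM. Tubb3 was at 0.0777 CPM or less in M1P and L1P and Th at 0. Their part in the Erbb3 levels was not tested. The 4 lung epithelial markers summed to 0.0194 CPM or less and the 3 adipocyte markers to 0.0582 CPM or less in M1P and L1P. The 6 blood cell markers summed to 2.32 to 3.08 CPM there, against 2.41 to 4.11 CPM in NMuMG and E1KD, and Ptprc, which all white blood cells carry, was at 0.0709 CPM or less. Lyz2, a myeloid gene named after its values were seen, read 2.87 to 4.74 CPM in M1P and L1P, against 0.166 to 0.443 CPM in NMuMG and E1KD. Its part was not tested either. The 4 endothelial markers summed to 0.541 CPM or less in M1P and L1P. The 4 fibroblast markers summed to 0.337 to 0.353 CPM there, against 0.610 to 1.20 CPM in NMuMG and E1KD.

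Per length of exon, used to set levels of different genes side by side, the receptor order turned over. The length was the union of all annotated exons of a gene, 11326 bases for Egfr and 6016 for Erbb3. It can exceed the length of the transcript expressed. Egfr led the receptors in NMuMG, at 10.4 CPM per kb, followed by Erbb2 at 4.26 and Erbb3 at 1.20. In E1KD the same order held, with Egfr at 7.17, Erbb2 at 4.71 and Erbb3 at 0.213 CPM per kb, and the ratio of Erbb3 to Egfr was 0.0305 and 0.0288 in its libraries. In M1P that ratio was 1.70 and 1.72, and in L1P 2.90 and 2.87. Erbb3 was thus the highest per length of all 10 members in M1P (18.0 CPM per kb) and in L1P (26.1 CPM per kb), and the last but Epgn in E1KD. In plain CPM Egfr was still above Erbb3 in M1P, at means of 119.1 and 108.1 CPM, so the order there rests on these lengths. In L1P Erbb3 was above Egfr in plain CPM too, at 157.0 against 102.4 CPM.

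**Figure D2:**
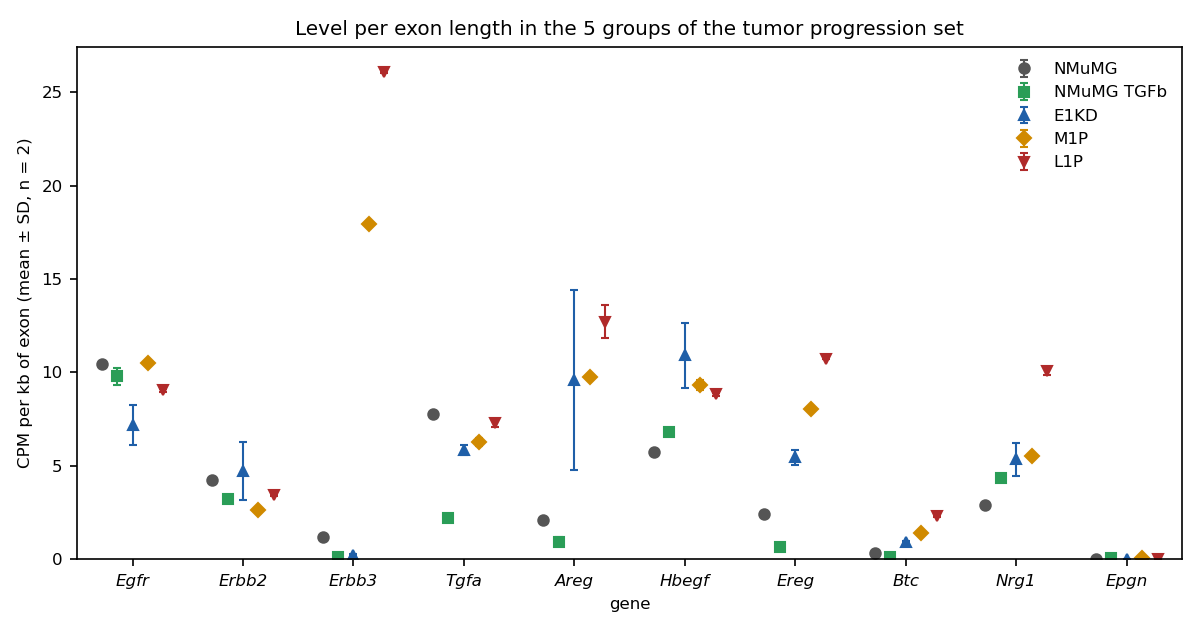
CPM per kb of exon for the 10 members in the 5 groups of the tumor progression set, with points for the mean and bars for the SD of 2 libraries. Erbb3 stands at 0.213 in E1KD, 18.0 in M1P and 26.1 in L1P, in the last 2 above every other member, and the widest bar is that of Areg in E1KD.

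Neither partner receptor was called in the tumor progression set. Egfr read 117.6 and 118.6 CPM in NMuMG, 107 and 114 CPM after TGFβ and 89.8 and 72.5 CPM in E1KD. M1P held 119.3 and 118.9 CPM and L1P 101.8 and 103.1 CPM. E1KD was lowest, at -0.54 ± 0.08 from NMuMG (adjusted p = 5.97e-05), a size below the limit for a call. Erbb2 read 30.3 and 18.8 CPM in the 2 E1KD libraries, on either side of NMuMG at 21.9 and 22.5 CPM. In M1P it read 13.3 and 14.2 CPM, a difference from E1KD of -0.75 ± 0.15. Without E1KD replicate 2 this became -1.08 and was called, so Erbb2 in M1P against E1KD rests on which E1KD library is used.

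In order of level within the tumor progression set, Erbb3 was highest in L1P, then M1P, NMuMG, E1KD and TGFβ-treated cells, and no neighboring groups overlapped. Egfr ran from M1P through NMuMG, TGFβ-treated cells and L1P to E1KD, also without overlap, although the means of M1P and NMuMG were 119.1 and 118.1 CPM. Erbb2 ran from E1KD, which overlapped NMuMG, through L1P and TGFβ-treated cells to M1P.

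The ligands Areg, Ereg, Btc and Epgn lie together. They were the 4 protein-coding genes among 7 listed genes within chr5:91027464-91402994 (GRCm38), a span of 375.5 kb. Along it come Epgn at chr5:91027464-91035215 (+), Ereg at chr5:91074622-91093646 (+), Areg at chr5:91139599-91148432 (+) and Btc at chr5:91357261-91402994 (-). Of these, Epgn was close to silent, and the other three were called together, and higher, in E1KD against NMuMG and against TGFβ-treated cells. RefSeq promoter windows were at hand for 6 of the 10 members, and those of Areg and Btc are shown because the group means of these neighbors followed each other over the 10 groups. Each is the 250 bases before the RefSeq start (GRCm38.p6), chr5:91139349-91139598 on the + strand for Areg and chr5:91402995-91403244 on the - strand for Btc, 5′ to 3′. Capitals mark matches to a cyclic AMP response element (TGACGTCA), an AP-1 site (TGANTCA) or an E-box of the kind bound by Snail and Zeb factors (CACCTG), searched on both strands.
Areg: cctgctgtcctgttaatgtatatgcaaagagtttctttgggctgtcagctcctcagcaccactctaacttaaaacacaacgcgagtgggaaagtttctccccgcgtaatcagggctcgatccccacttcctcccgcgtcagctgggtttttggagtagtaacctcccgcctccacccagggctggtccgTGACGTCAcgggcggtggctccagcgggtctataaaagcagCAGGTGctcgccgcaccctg
Btc: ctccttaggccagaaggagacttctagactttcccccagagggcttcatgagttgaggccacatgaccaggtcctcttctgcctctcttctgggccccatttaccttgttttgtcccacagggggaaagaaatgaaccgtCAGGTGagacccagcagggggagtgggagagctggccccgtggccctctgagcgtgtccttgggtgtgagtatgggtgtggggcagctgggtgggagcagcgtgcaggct

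The Areg window held the cyclic AMP response element 61 to 54 bases before the start, a sequence found in 1.55% of 32851 windows of this length, and an E-box 20 to 15 bases before it. The Btc window held an E-box 110 to 105 bases before the start. E-boxes of this form occurred in 17.2% of all windows and the AP-1 site, absent from both, in 6.75%. These matches describe the letters of the windows and are not evidence of binding.

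Areg, Ereg and Btc were higher in E1KD than in NMuMG. Areg, the most abundant of them per length in E1KD, read 2.46 and 2.62 CPM in NMuMG and 15.8 and 7.52 CPM in E1KD. The E1KD libraries differed from each other for Areg more than for the other ligands, and both were above NMuMG. Its difference was 1.76 ± 0.21 on the log2 scale (adjusted p = 5.90e-06), 1.27 without E1KD replicate 1 and 2.25 without replicate 2. Ereg, also a ligand of Egfr and Erbb4, read 10.4 and 9.59 CPM in NMuMG against 23.7 and 21.4 CPM in E1KD, a difference of 1.10 ± 0.07 (adjusted p = 6.98e-09). Btc, which binds the same receptors, read 1.56 and 1.49 CPM against 4.37 and 3.88 CPM, a difference of 1.02 ± 0.09 (adjusted p = 2.95e-07). For each of these genes both E1KD libraries lay above both NMuMG libraries.

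With Erbb3, 4 members were called in E1KD against NMuMG, 3 higher and 1 lower, of the 9 tested, where 9.44% of all tested genes were called. The scaling of the libraries bears on this count. The median difference of all genes was 0.17, and 1102 of the called genes were higher and 512 lower. Rescaled to equal sums over nuclear protein-coding genes, the median was 0.01, 749 were higher and 765 lower, and Ereg (0.87) and Btc (0.85) fell short of a difference of 1, leaving 2 members called, Erbb3 and Areg. Without E1KD replicate 1 Btc was at 0.95. Without replicate 2 Hbegf was at 1.05 and Nrg1 at 1.02, where the median of all genes was 0.33. Fitted on the compared libraries alone, 1 member, Erbb3, was called, where 4.43% of all tested genes were called.

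The remaining ligands were not called in this comparison. Hbegf, released by ADAM proteases and located at chr18:36504929-36515805 (-), read 28.002 and 27.644 CPM in NMuMG and 58.7 and 46.8 CPM in E1KD, a difference of 0.89 ± 0.09. Nrg1, the ligand of Erbb3 (chr8:31814551-32884029, -), read 30.0 and 29.8 CPM against 61.9 and 48.9 CPM, a difference of 0.86 ± 0.08. Tgfa, the classical second ligand of Egfr (chr6:86195223-86275719, +), read 50.7 and 50.5 CPM against 39.0 and 36.6 CPM, a difference of -0.41 ± 0.07. The E1KD libraries lay above NMuMG for Hbegf and Nrg1 and below it for Tgfa, with no overlap.

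**Figure D3:**
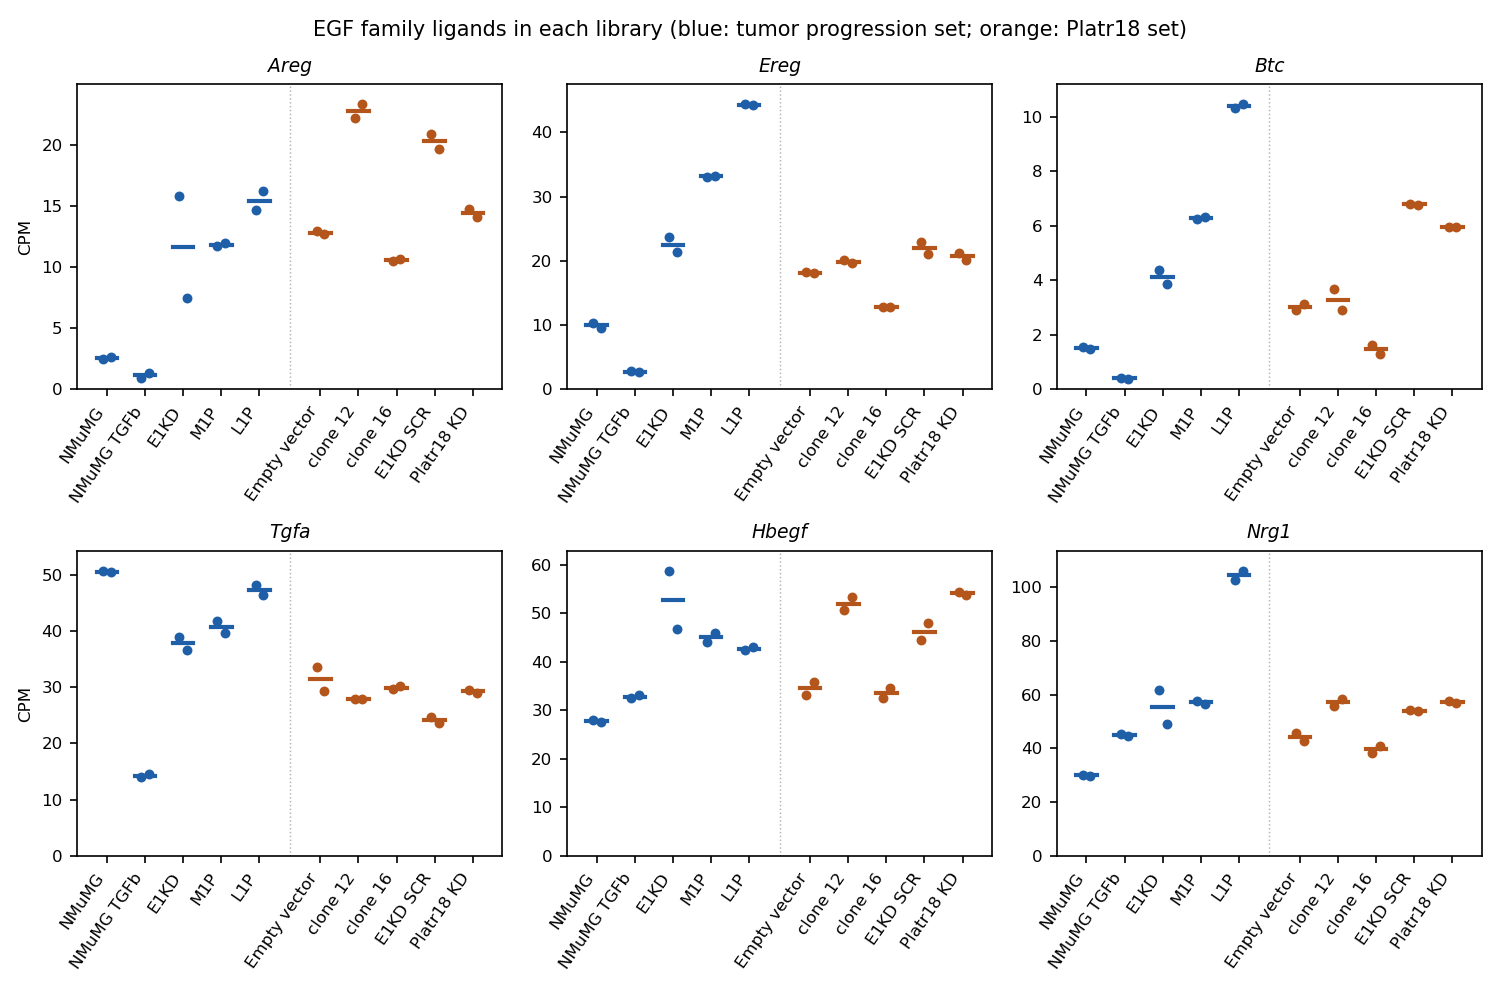
CPM of 6 ligands in each library, by group, on axes that start at 0, with points for the 2 libraries and a bar for their mean. Areg, Ereg and Btc are lowest in TGFβ-treated cells, at 1.35, 2.79 and 0.434 CPM or less. Their means are highest of the tumor progression set in L1P, where Btc reads 10.3 and 10.4 CPM and Areg overlaps E1KD.

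After TGFβ, Tgfa and Ereg fell. Tgfa read 14.1 and 14.5 CPM against 50.7 and 50.5 CPM in untreated cells, a difference of -1.75 ± 0.07 (adjusted p = 2.45e-11). Ereg read 2.79 and 2.76 CPM, a difference of -1.54 ± 0.07 (adjusted p = 1.10e-10). The ratios of mean CPM were 3.54-fold for Tgfa and 3.61-fold for Ereg, with no overlap between the groups. Btc, at 0.434 and 0.367 CPM, differed by -0.85 ± 0.09, and Areg, at 0.935 and 1.35 CPM, by -0.73 ± 0.21. Neither was called with a pseudocount of 1, and both were with a pseudocount of 0.1, at -1.70 for Btc and -1.11 for Areg. Nrg1 read 45.1 and 44.6 CPM, a difference of 0.57 ± 0.08, and Hbegf 32.6 and 33.1 CPM, a difference of 0.23 ± 0.09, neither called. With Erbb3, 3 members were called lower and 0 higher, of 9 tested, where 13.5% of all tested genes were called, 1000 higher and 1311 lower. With median-of-ratios factors the split of all genes was 1313 higher and 1024 lower, and the same 3 members were called.

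Compared directly, E1KD and TGFβ-treated cells had different ligand levels. E1KD exceeded TGFβ-treated cells in Ereg by 2.64 ± 0.07 (adjusted p = 2.42e-13), in Areg by 2.49 ± 0.21 (adjusted p = 7.33e-08), in Btc by 1.87 ± 0.09 (adjusted p = 1.85e-10) and in Tgfa by 1.34 ± 0.07 (adjusted p = 3.32e-10). The ratios of mean CPM were 8.13, 10.2, 10.3 and 2.65. These 4 ligands were the members called, all higher in E1KD, of 9 tested, where 23.3% of all tested genes were called. The median of all genes was 0.26 in this comparison and 0.01 with median-of-ratios factors, which turned the split of all called genes from 2938 higher and 1055 lower to 1682 and 1838. Ereg, Areg and Btc were called with those factors, and Tgfa, at 0.96, was not. On the compared groups alone, where 7.99% of all tested genes were called, Areg lost its call (limma, adjusted p = 0.0266). Summed over Areg, Ereg and Btc, the libraries held 14.4 and 13.7 CPM in NMuMG, 4.16 and 4.47 CPM after TGFβ and 43.9 and 32.8 CPM in E1KD.

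**Figure D4:**
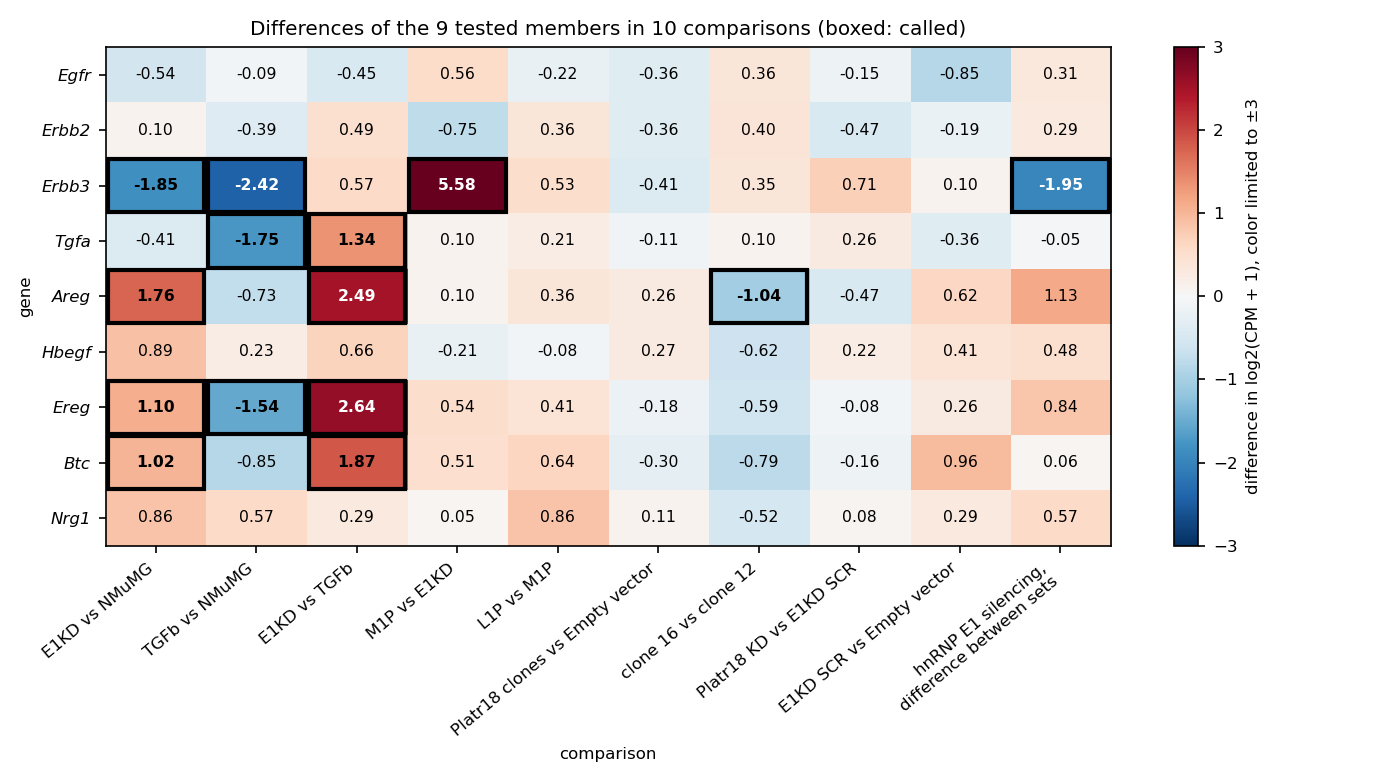
Differences in log2(CPM + 1) of the 9 tested members (rows) in the 10 comparisons (columns), red for higher and blue for lower in the first-named group, with boxes around called genes. Erbb3 carries 4 of the boxes, including the largest value, 5.58 for M1P against E1KD, and Areg, Ereg and Btc are boxed together in E1KD against NMuMG and in E1KD against TGFβ-treated cells.

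In the tumor line no ligand was called against the E1KD cells. M1P held 11.7 and 11.9 CPM of Areg, between the 2 E1KD libraries. Ereg read 33.1 and 33.2 CPM, 0.54 ± 0.07 above E1KD, and Btc 6.25 and 6.33 CPM, 0.51 ± 0.09 above it. Nrg1, at 57.7 and 56.6 CPM, lay within the range of the E1KD libraries. Erbb3 was the only member called in M1P against E1KD, of 9 tested, where 3.59% of all tested genes were called, 198 higher and 416 lower. The median of all genes was -0.17 here, and with equal sums over nuclear protein-coding genes it was -0.03, with 303 higher and 314 lower. Erbb3 was called in either case.

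L1P against M1P gave no called member, of 9 tested, where 1.21% of all tested genes were called by limma. An unadjusted p below 0.05 was reached by 7 members and by 29% of all tested genes. The largest of these differences was that of Nrg1, which read 103 and 106 CPM in L1P, 0.86 ± 0.08 above M1P (95% interval 0.68 to 1.04, adjusted p = 5.99e-06). Btc read 10.3 and 10.4 CPM, 0.64 ± 0.09 above M1P, and Ereg 44.3 CPM in both libraries, 0.41 ± 0.07 above it. L1P and M1P did not overlap in the 9 tested members, as was so for 70.5% of all tested genes. The difference was positive in 7 of the members and negative in Egfr (-0.22) and Hbegf (-0.08). L1P had the highest mean of the tumor progression set for Erbb3, Nrg1, Ereg, Btc and Areg. For Areg, L1P at 14.7 and 16.2 CPM overlapped E1KD at 15.8 and 7.52 CPM. M1P and E1KD overlapped for Areg and for Nrg1.

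Across the 10 groups, centered within each set, the 3 active ligands of the chromosome 5 span followed each other. Pearson's r of the group means was 0.953 for Areg with Ereg, 0.933 for Ereg with Btc and 0.898 for Areg with Btc. These were the highest values of all pairs of tested members, and the lowest was -0.752 for Egfr with Hbegf. The groups share libraries between genes, and the values are descriptions over 10 points. Group means of Ereg on the log2 scale ran from 1.92 to 5.50 in the tumor progression set and from 3.79 to 4.52 in the Platr18 set. The likeness of Areg and Btc to Ereg therefore rests mainly on the tumor progression set. Among 11869 genes, those whose group means were most like Erbb3 were Rpgrip1 (r = 0.986), Lyz2 (0.973) and Gm996 (0.971). In the Platr18 set Rpgrip1 was at 0.0579 CPM or less and Gm996 at 0.402 CPM or less. Their likeness to Erbb3 therefore rests mainly on the tumor progression set, where Rpgrip1 read 8.82 to 19.6 CPM. Lyz2, a lysozyme gene of myeloid cells, was at 2.87 to 4.74 CPM in M1P and L1P and at 0.443 CPM or less in the other groups of that set. Most like Ereg were Sorbs2 (0.987), Ccdc47 and Abcc4, most like Btc were Fut10 (0.982), Rbm12b2 and Wee1, and most like Areg were Ebag9 (0.990), Fam107b and Pbrm1.

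In the Platr18 set E1KD SCR was set against Empty vector. The labels give these groups different vectors, so silencing of hnRNP E1 and the vector cannot be told apart within this comparison. E1KD SCR differed from Empty vector in 0 of 9 tested members by limma, where 5.98% of all tested genes were called. An unadjusted p below 0.05 was reached by 7 members and by 49.4% of all tested genes. Btc was nearest to a call, at 6.81 and 6.77 CPM against 2.90 and 3.11 CPM, a difference of 0.96 ± 0.09 (adjusted p = 8.49e-07), and with a pseudocount of 0.1 it was called, at 1.15. Egfr read 118 and 116 CPM against 219 and 205 CPM, a difference of -0.85 ± 0.08 (adjusted p = 1.03e-06). Areg read 20.9 and 19.7 CPM against 12.9 and 12.7 CPM, a difference of 0.62 ± 0.21. These 3 genes were among 8 of the 9 tested members that did not overlap between the groups. The share of all genes for which this was so was not counted.

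Erbb3 gave another result here than in the tumor progression set. It read 5.05 and 5.27 CPM in E1KD SCR and 5.10 and 4.40 CPM in Empty vector, which overlapped, and the difference was 0.10 ± 0.11 (95% interval -0.13 to 0.33). The difference between the sets in silenced against control cells was -1.95 ± 0.15 on the log2 scale (limma, adjusted p = 3.99e-07). The lower Erbb3 of E1KD was thus not seen in E1KD SCR, at a depth of 332 reads or more per library. Erbb3 was the 1 member called, of 9 tested, where 3.51% of all tested genes were called. Areg, at 1.13 ± 0.29 (adjusted p = 0.0129), was not called, except without E1KD replicate 2, at 1.62, with an adjusted p under 0.05 as the rule, or with a pseudocount of 0.1, at 1.40. The sets differ in vector, selection and RNA content together, and these cannot be told apart. E1KD and E1KD SCR also stood differently to their controls. The mesenchymal markers were Vim, Cdh2, Fn1, Zeb1, Zeb2 and Snai1. They summed to 1349 to 1831 CPM in E1KD against 535 to 556 CPM in NMuMG. In E1KD SCR they summed to 767 to 832 CPM against 656 to 695 CPM in Empty vector. Platr18 was higher in E1KD than in NMuMG, and overlapped between E1KD SCR and Empty vector. Whether this bears on Erbb3 was not tested. Scaling changed the split of all genes in this comparison, from 439 above and 162 below to 313 and 248 with equal sums over nuclear protein-coding genes, and their median from 0.17 to -0.01, with Erbb3 called in both.

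Overexpression of Platr18 gave no member called when both clones were set against Empty vector, of 9 tested by limma, where 1.46% of all tested genes were called. An unadjusted p below 0.05 was reached by 6 members and by 38.3% of all tested genes. Egfr read 142 to 188 CPM in the 4 clone libraries against 205 and 219 CPM, a difference of -0.36 ± 0.07. Erbb2 read 14.2 to 20.4 CPM against 20.4 and 23.2 CPM, also -0.36 with an SE of 0.13. Erbb3 read 2.42 to 4.09 CPM against 4.40 and 5.10 CPM, a difference of -0.41 ± 0.09. All clone libraries lay below Empty vector for the 3 receptors, and none was called. The differences were larger in clone 12, at -0.54 for Egfr, -0.56 for Erbb2 and -0.58 for Erbb3. In clone 16 alone they were -0.18, -0.17 and -0.23. The nearest Erbb2 libraries stood at 20.3591 and 20.3625 CPM, and the share of all genes without overlap was not counted here. Clone 12 alone gave 0 called members (3.65% of all tested genes were called), with 7 at an unadjusted p below 0.05 (47.2% of all tested genes). Clone 16 alone also gave 0 (1.78%), with 4 at that p (34.3%).

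The clones differed from each other in the ligands. Areg read 22.2 and 23.3 CPM in clone 12 and 10.5 and 10.6 CPM in clone 16, with the Empty vector libraries between them at 12.9 and 12.7 CPM. Clone 16 was lower than clone 12 by 1.04 ± 0.21 (adjusted p = 0.00097), which made Areg the 1 called member, of 9 tested, where 4.38% of all tested genes were called. With any 1 of the 4 libraries left out the difference was -1.004 to -1.073 and the p-value passed 0.001, so that 0 members were called. Differences of the same sign, none called, were -0.79 ± 0.09 for Btc, -0.62 ± 0.09 for Hbegf, -0.59 ± 0.07 for Ereg and -0.52 ± 0.08 for Nrg1, while Tgfa gave 0.10 ± 0.07. Btc was called with a pseudocount of 0.1, at -1.11. Clone 12 held more Platr18 than clone 16, and with 1 clone at each level the level and the clone cannot be told apart.

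Silencing of Platr18 in E1KD cells gave 0 called members of 9 tested by limma, where 1.48% of all tested genes were called. E1KD SCR held 2.92 and 3.10 CPM of Platr18 against 3.68 and 3.06 CPM in Empty vector, so no raised level was lowered here. An unadjusted p below 0.05 was reached by 5 members and by 30.7% of all tested genes. Erbb3 had the largest difference, at 8.86 and 9.24 CPM against 5.05 and 5.27 CPM in E1KD SCR, or 0.71 ± 0.11 (95% interval 0.48 to 0.93, adjusted p = 2.82e-04). Erbb2 read 13.1 and 13.7 CPM against 19.4 and 18.6 CPM, a difference of -0.47 ± 0.15. Areg read 14.8 and 14.1 CPM against 20.9 and 19.7 CPM, also -0.47 with an SE of 0.21. The libraries of the 2 groups did not overlap for 8 of the 9 tested members, these genes among them. Here too the share of all genes was not counted.

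Of 71 other genes of the pathway, 64 were tested. The fourth receptor, Erbb4, was at 0.0274 CPM or less in every library, and the ligand Egf at 0.509 to 1.60 CPM. In E1KD against NMuMG 6 pathway genes were called, all higher. These were 9.38% of those tested, close to the 9.44% of all genes, and the median difference over the tested pathway genes was 0.29 against 0.17 for all genes. The called genes were Fosl1, an AP-1 subunit induced by ERK (21.4 to 70.8 CPM in the group means, 1.68 ± 0.09), cyclin D1 (Ccnd1, 1.12 ± 0.09), the ERK phosphatase Dusp5 (1.50 ± 0.09), the adaptor Gab1 (1.38 ± 0.11), Hras (1.11 ± 0.15) and the protease Adam8 (1.42 ± 0.17). The pathway genes were not refitted under other scalings, and those near the limit for a call, such as Hras and Ccnd1, are closer to it than the shift of the median given above. After TGFβ 6 were higher and 5 lower, 17.2% of those tested against 13.5% of all genes, with a median of 0.18 against -0.08 for all genes. Ccnd1 (-1.78 ± 0.09), Fosl1 (-1.67 ± 0.09) and Egr1 (-1.58 ± 0.13), transcriptional targets of ERK, were lower, as was the ERK phosphatase Dusp6 (-1.62 ± 0.08). The ERK response list had 4 called genes lower and 1 higher, and its other 2, named after their values were seen, were Phlda1, lower (-1.29 ± 0.10), and Ier3, higher (1.08 ± 0.11). Dusp6 belongs to the list of inhibitors, which had 2 called genes higher and 1 lower. The higher ones were Dusp4 (1.74 ± 0.09) and Spred2 (1.05 ± 0.07). Stat3 (1.65 ± 0.10), Plcg1 (1.33 ± 0.13) and Gab2 (1.25 ± 0.07) were higher too.

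E1KD against TGFβ-treated cells had 8 pathway genes higher and 6 lower, 21.9% of those tested against 23.3% of all genes, with a median of 0.08 against 0.26 for all genes. All 4 called members of the 11 ERK response genes were higher, among them Fosl1 (3.35 ± 0.09), Ccnd1 (2.90 ± 0.09) and Phlda1 (1.37 ± 0.10). Of the inhibitors 3 were higher and 2 lower. Spry2 was higher (1.71 ± 0.11), as were Dusp6 (1.39 ± 0.08) and Errfi1 (1.25 ± 0.06), both named after their values were seen, and Dusp4 (-1.78 ± 0.09) and Spred3 (-1.47 ± 0.10) were lower. Of the relay genes Hras was higher (1.41 ± 0.15) and Plcg1 (-1.66 ± 0.13) and Gab2 (-1.21 ± 0.07) were lower, as was Frmd8 (-1.05 ± 0.11), which acts with the rhomboid proteins that mature the protease ADAM17. In the other comparisons 0 to 4 of the 64 were called. In M1P against E1KD Adam8 was higher (1.43 ± 0.17), at 34.5 and 34.3 CPM against 16.2 and 8.98 CPM, and the ERK inhibitor Spry1 was lower (-1.11 ± 0.08). Egr1 was the 1 called gene in L1P against M1P (1.43 ± 0.13), at 12.3 and 12.4 CPM against 4.24 and 3.65 CPM. In the Platr18 set Adam8 was higher and Myc lower in clone 16 against clone 12 (1.85 ± 0.17 and -1.02 ± 0.08), Bace1, a protease that cleaves Nrg1, was lower with Platr18 silenced (-1.16 ± 0.08), and Adam8 was higher and the adaptor Shc1 lower in E1KD SCR against Empty vector (1.05 ± 0.17 and -1.05 ± 0.08). No pathway gene was called for the 2 clones against Empty vector. In the difference between the sets in silenced against control cells, Dusp5 (1.42 ± 0.13), Spry2 (1.30 ± 0.15), Adam9 (1.12 ± 0.17) and Phlda1 (1.01 ± 0.15) were called. Adam9 and Phlda1 overlapped between E1KD and NMuMG. Adam9 read 45.0 and 43.6 CPM in E1KD SCR against 87.3 and 86.5 CPM in Empty vector, and Phlda1 4.97 and 5.91 CPM against 12.2 and 10.5 CPM. Both were closer to the limit for a call than the shift of the median of all genes on rescaling, given above for this comparison.

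The remaining member locations were chr11:16752203-16918158 (+) for Egfr, chr11:98412470-98437716 (+) for Erbb2 and chr10:128567523-128589652 (-) for Erbb3. Strand was not stated for the libraries, so reads of overlapping genes could not be separated by strand. Egfr overlaps the antisense gene Egfros, which was at 0.484 CPM or less, Nrg1 overlaps Gm26578, at 4.58 CPM or less, and Erbb2 shares 9 bases with Mien1, at 24.8 CPM or less. Tgfa overlaps a gene at 0.787 CPM or less, and Ereg one at 0.859 CPM or less. The only overlap of Erbb3 was a microRNA gene at 0 CPM.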

How the data were processed

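The authors deposited CPM values, read counts scaled by depth, with 0.0001 added to every value. By the submitters' notes and the study's methods, single-pass HiSeq2500 reads were aligned with Bowtie2 to GRCm38.p6 and assigned by expectation-maximization in Partek. The expectation-maximization step splits reads between overlapping genes. Depth was read from the step of 1 read in low values, of which 91.7 to 98.2% were whole multiples within 2%. Genes reaching 1 CPM in 2 or more of the 20 libraries were fitted with limma (version 3.58.1, R version 4.3.3), with 10 group means, on log2(CPM + 1), in a script tested on simulated data. All 10 members are named. From the pathway lists, called genes with the largest differences and no overlap between groups are named, at most 3 per list and comparison. The members and lists were chosen with earlier results of these data known. Exon lengths, the union of all exons of a gene, came from GENCODE M21. In it 9 of the members have the same span as in the deposited data, and Hbegf a different one. Overlaps came from the deposited coordinates. Promoter windows came from RefSeq (GRCm38.p6). Alternatives covered the pseudocount, the filter, the scaling, the libraries fitted, the replicate number and the call rule. Counting error alone is covered by read numbers, since no molecular identifiers were named. One marker of the nerve list is not reported here.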

Additional observations from a re-analysis of the deposited data

Results flagged for a closer look

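The Erbb3 difference of hnRNP E1-silenced cells from their controls differed between the sets by -1.95 ± 0.15 on the log2 scale (limma, adjusted p = 3.99e-07). The libraries read 6.96 and 7.45 CPM in NMuMG against 1.46 and 1.11 CPM in E1KD, and 5.10 and 4.40 CPM in Empty vector against 5.05 and 5.27 CPM in E1KD SCR. The direction held in all libraries of the first pair of groups, and the groups of the second pair overlapped. Vector, selection and RNA content differ together between the sets, so their parts cannot be told apart. Platr18 and the summed mesenchymal markers also stood further above the control in E1KD than in E1KD SCR. Their part was not tested.

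Areg differed between the Platr18 clones by -1.04 ± 0.21 (limma, adjusted p = 0.00097), at 10.5 and 10.6 CPM in clone 16 against 22.2 and 23.3 CPM in clone 12. Without any 1 of these libraries the difference kept its sign, at -1.004 to -1.073, and was no longer called. Each clone is 1 line, and the part of the Platr18 level was not tested.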

How the results depend on the processing

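Counts of called members moved as follows, with the main count first. E1KD against NMuMG gave 4, and 2 with equal sums over all genes, with equal sums over nuclear protein-coding genes and with median-of-ratios factors, since Ereg and Btc fell short of a difference of 1, and 1 on the compared groups alone, where Areg, Ereg and Btc had p-values above 0.001 with fewer libraries to estimate the spread. TGFβ gave 3, and 5 with a pseudocount of 0.1. E1KD against TGFβ-treated cells gave 4, and 5 with that pseudocount (Erbb3 added), 3 with median-of-ratios factors (Tgfa lost), 3 on the compared groups alone (Areg lost) and 3 under the stricter filter of a 5 CPM mean (Btc not tested). With that pseudocount clone 16 against clone 12 gave 2 in place of 1, E1KD SCR against Empty vector 1 in place of 0, and the difference between the sets 2 in place of 1, the latter also with an adjusted p below 0.05 as the rule. Leaving out 1 library gave 3 to 6 for E1KD against NMuMG, 1 to 2 for M1P against E1KD (2 without E1KD replicate 2), 0 for clone 16 against clone 12, and 1 to 2 for the difference between the sets. No called member changed sign: of 201 values for 14 called results under the alternatives, 185 were called and 16 were not. For all genes, the calls for E1KD against NMuMG were 1614, and 948 among genes with a mean of at least 5 CPM, 758 on the compared groups alone and 3074 without E1KD replicate 2. Those for M1P against E1KD were 614, and 2021 without E1KD replicate 2 and 1130 with a pseudocount of 0.1. The difference between the sets gave 601, and 1779 without E1KD replicate 2. The labels' replicate numbers were fitted as a replicate block, which gave the same counts of called members (4, 3, 4, 1, 0, 0, 1, 0, 0 and 1 in the order of the comparisons). With 2 replicates per group and no shared origin given, the numbers were not taken to pair the samples. Deviations of same-numbered libraries correlated at -0.395 for E1KD with TGFβ-treated cells, -0.125 for Empty vector with clone 16, 0.127 for Empty vector with clone 12 and 0.287 for the 2 clones, and crossing the numbers, chosen after seeing the data, gave 4 for that comparison and 0 for the clones against Empty vector, whose crossing was likewise added. Depth limits Epgn, at 0.149 CPM or less.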
